A study of Mus musculus with 6 samples.

Results

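Transcripts of 38 enzymes of amino acid breakdown were followed in bulk RNA sequencing of KC-Tie2 and Control mouse kidneys. The 38 genes were chosen by name, as the enzymes of branched-chain, propionate, tyrosine, lysine, proline, glutamate and aspartate, sulfur, and glycine and sarcosine metabolism. All 38 were among the 17550 genes of the table of normalized counts, whose values the authors scaled between libraries. Genes whose normalized counts averaged under 10 across all libraries were set aside, which left 17539 for testing and removed none of the 38. The study compared 3 KC-Tie2 kidneys with 3 Control kidneys. KC-Tie2 mice are used to model psoriasis, and their skin keratinocytes carry extra Tie2, a receptor tyrosine kinase whose gene symbol is Tek, from a transgene. The kidneys of both genotypes were perfused with saline, and libraries were made after poly(A) selection. The labels used here give no strain, sex, age or transgene promoter, and they do not say what the Control mice carry; in the header of the authors' comparison that group is called WT. Whether every sample is a different animal is not said, so a p-value here reflects sample-to-sample spread, which may be technical.

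The normalized counts of a library summed to between 23647811 and 25495455, and the depth before scaling is not stated. Most low values were multiples of 1 step per library; if that step is 1 read, the depth was 18.8 M to 29.5 M reads (M for mega). On that reading the lowest of the 38 genes in any library was Mcee in Control replicate 3, at 382 reads, for which counting error alone is 5.12%. All 14 fixed proximal tubule markers and all 7 collecting duct markers were in the table, and none was at 0 in any library. Of 5 liver markers 4 were also in the table and above 0, so presence alone does not check the kidney label. By level, the proximal tubule markers summed to at least 425774 in every library and the liver markers to at most 3122. Tek itself had 948 ± 24.8 normalized counts in KC-Tie2 kidneys and 1048 ± 50.9 in Control kidneys (SD, n = 3 each; limma adjusted p = 0.361).

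Amino acids are broken down by removal of the amino group, which passes to glutamate, and by oxidation of the remaining carbon skeleton, mostly in mitochondria. Leucine, isoleucine and valine share their first reactions and then part into separate chains of enzymes that end in acetyl-CoA, propionyl-CoA and their relatives. In the kidney the proximal tubule takes amino acids up from the filtrate, and several of these enzymes are abundant there. Inherited loss of many of them causes organic acidurias in humans.

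Fold changes below are log2 values of KC-Tie2 minus Control ± SE on the log2(value + 1) scale, and adjusted p is limma's with Benjamini-Hochberg adjustment over all 17539 genes. A gene is said to have risen or fallen when adjusted p was under 0.05. Where single libraries are not listed, a level is the mean ± SD of 3 libraries of normalized counts.

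Of the 38 enzymes, 4 fell and none rose in KC-Tie2 kidneys. Over all genes tested, 1.69% were called in either direction, 0.838% lower and 0.855% higher. The count was not stable when 1 library was left out, nor was that over all genes, which was 297 with all libraries. No enzyme was called without KC-Tie2 replicate 1, KC-Tie2 replicate 2, Control replicate 1 or Control replicate 3. In those fits 69, 48, 51 and 54 of all genes were called. Without KC-Tie2 replicate 3, 10 enzymes and 682 genes in all were called, and without Control replicate 2, 8 enzymes and 530 genes in all. The genes that fell were Aass, which starts lysine breakdown, Cbs, which joins homocysteine and serine, Ivd, the leucine-specific acyl-CoA dehydrogenase, and Pcca, the biotin-bearing subunit of propionyl-CoA carboxylase. Each belongs to a different pathway, and their levels were 19.2% to 32.9% lower. At an unadjusted p under 0.05, 19 of the 38 were lower and 1 was higher (Got1), against 7.77% and 7.57% of all genes tested. The 3 KC-Tie2 libraries lay below all 3 Control libraries at 16 of the 38, where 10% of all genes tested did so, and above them at 1 of the 38, where 9.96% did. The fold change was below 0 for 29 of the 38, against 49.7% of all genes tested. Its median over the 38 was -0.19, between -0.58 and 0.26, while the median over all genes tested was 0.0012. Without KC-Tie2 replicate 1 the median over the 38 was -0.12, and without each of the other libraries it lay between -0.26 and -0.16.

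**Figure D1:**
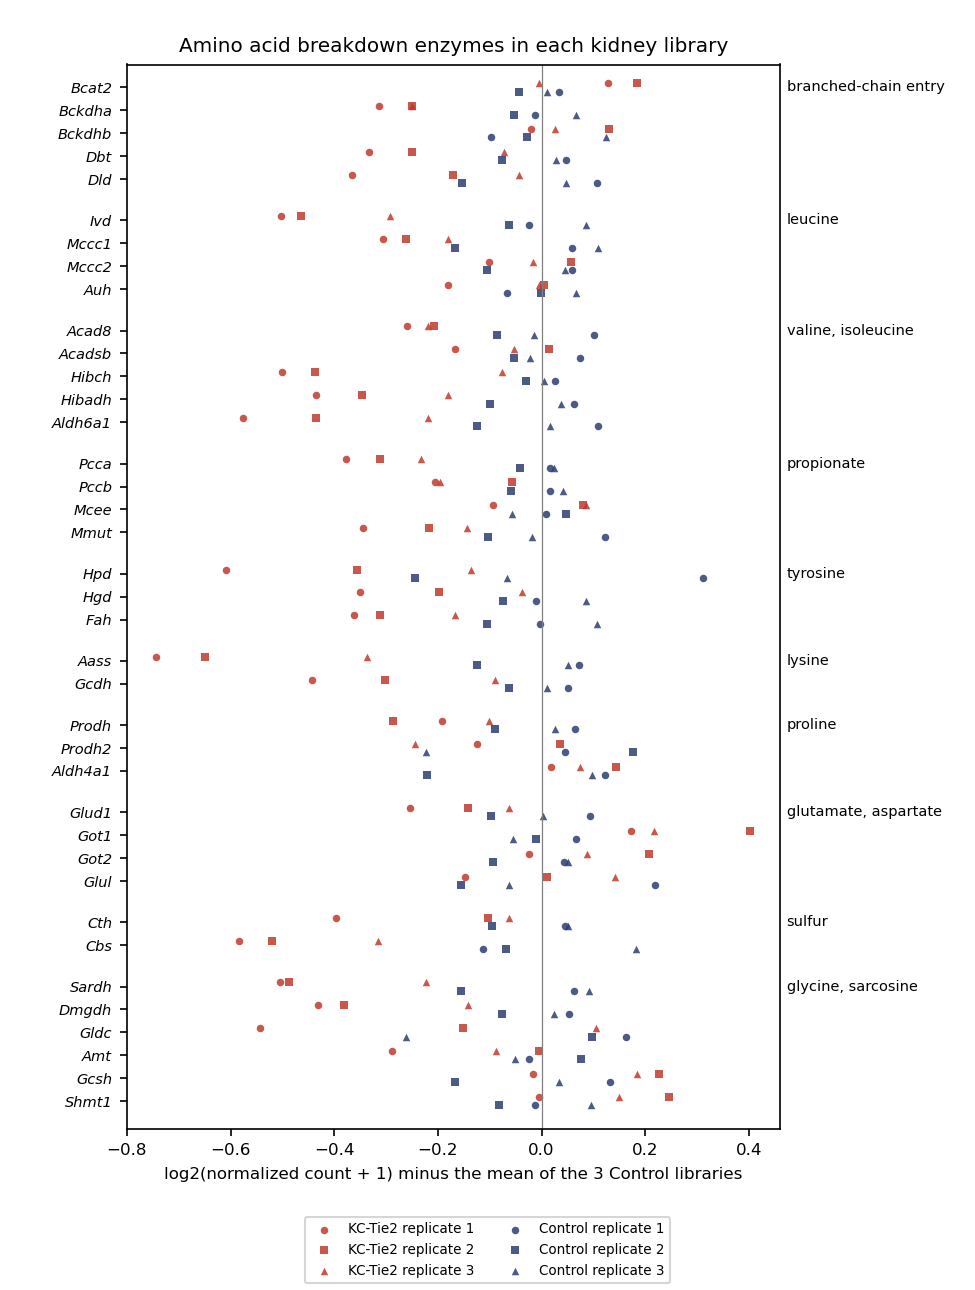
Each row is 1 enzyme gene, grouped by pathway, and each point 1 library: log2(normalized count + 1) minus the mean of the 3 Control libraries, with KC-Tie2 points above Control points in a row. At 16 of the 38 genes all 3 KC-Tie2 points lie left of all 3 Control points, and at Got1 alone they lie to the right.

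Lysine breakdown held the lowest fold change of the 38. Aass encodes the bifunctional aminoadipic semialdehyde synthase, which joins lysine to oxoglutarate and then splits the product (ENSMUSG00000029695, chromosome 6, 23072172 to 23132985, minus strand, mm39). Aass had 6236, 6659 and 8260 normalized counts in KC-Tie2 replicates 1 to 3 and 10981, 9575 and 10821 in Control replicates 1 to 3. The groups did not overlap, and among KC-Tie2 kidneys replicate 3 came nearest to Control. Aass fell by 0.58 ± 0.10 on the log2 scale, to a level 32.9% lower (limma adjusted p = 0.0228). Gcdh, the glutaryl-CoA dehydrogenase further down the same route, had 3986, 4394 and 5089 in KC-Tie2 and 5614, 5183 and 5458 in Control libraries. These groups did not overlap either, but Gcdh was not called (-0.28 ± 0.09, limma adjusted p = 0.152).

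Sulfur amino acids are broken down through cystathionine. Cbs, cystathionine beta-synthase, condenses homocysteine with serine (ENSMUSG00000024039, chromosome 17, 31827868 to 31856212, minus strand, mm39). Cbs had 2521, 2634 and 3038 normalized counts in KC-Tie2 and 3492, 3605 and 4285 in Control libraries, with no overlap. Cbs fell by 0.47 ± 0.09, to a level 27.9% lower (limma adjusted p = 0.0337). Cth, which cleaves cystathionine to cysteine, averaged 1948 ± 236 in KC-Tie2 and 2211 ± 126 in Control kidneys and was not called (-0.19 ± 0.09, 95% confidence interval -0.39 to 0.01, limma adjusted p = 0.354). The Cth groups overlapped, since 2055 and 2113 in KC-Tie2 replicates 2 and 3 lay near 2066 in Control replicate 2.

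**Figure D2:**
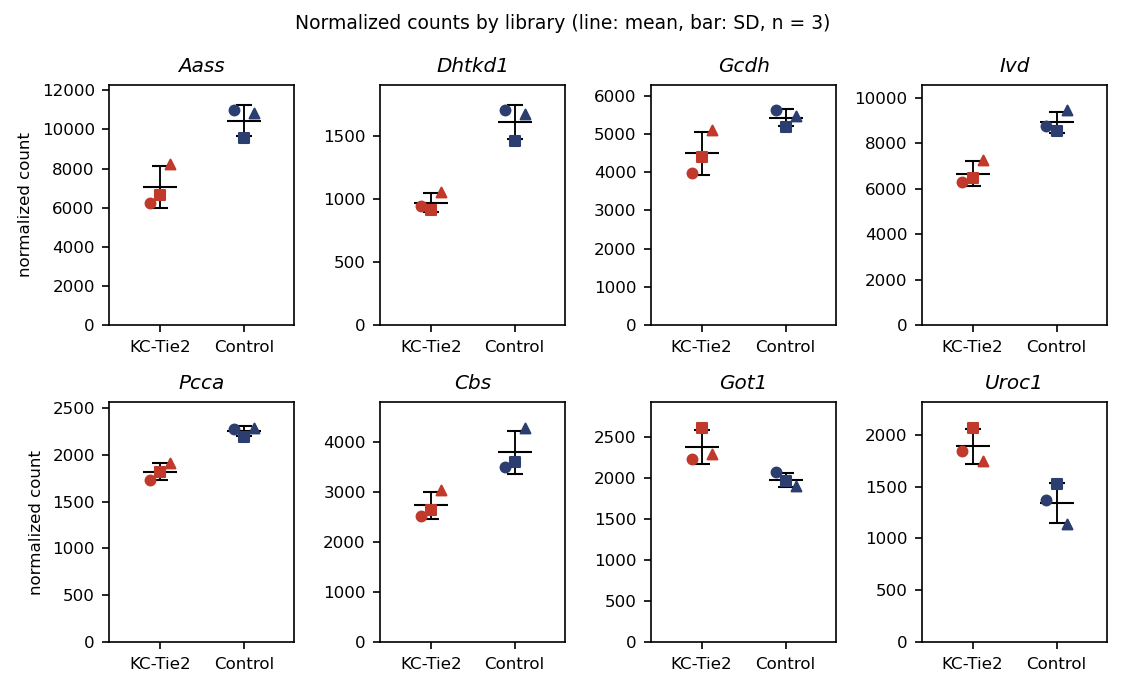
Each panel shows the normalized counts of 1 gene, with KC-Tie2 libraries left of Control libraries, circle, square and triangle for replicates 1 to 3, a line for the mean and a bar for the SD (n = 3), on axes that start at 0. Aass, Dhtkd1, Ivd, Pcca and Cbs have 3 KC-Tie2 points below all Control points and passed the test; Gcdh is separated without passing, and Got1 and Uroc1 have KC-Tie2 points above all Control points, of which only Uroc1 passed.

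The branched-chain amino acids first lose their amino group to Bcat2, the mitochondrial aminotransferase, which averaged 1445 ± 96.2 in KC-Tie2 and 1344 ± 37.1 in Control kidneys (0.10 ± 0.07, limma adjusted p = 0.543). The lncRNA gene 0610005C13Rik overlaps Bcat2 on the other strand at higher means, 2157 in KC-Tie2 and 2820 in Control kidneys, so the Bcat2 value is uncertain. Their keto acids then enter the branched-chain dehydrogenase complex, in which Bckdha and Bckdhb are the decarboxylase chains, Dbt is the acyltransferase core and Dld is a dehydrogenase shared with the pyruvate complex. No gene of this complex was called. Bckdha came nearest, with 3224, 3369 and 3370 in KC-Tie2 and 3973, 3860 and 4194 in Control libraries (-0.27 ± 0.07, limma adjusted p = 0.0684), and its groups did not overlap. Dbt averaged 1924 ± 180 and 2235 ± 103 (limma adjusted p = 0.2), and Dld 3283 ± 365 and 3751 ± 347 (limma adjusted p = 0.362), in KC-Tie2 and Control kidneys. Bckdhb was at 582 ± 31.7 in KC-Tie2 and 564 ± 45.2 in Control kidneys, with a fold change of 0.05 and a 95% confidence interval of -0.15 to 0.24 (limma adjusted p = 0.867).

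On the leucine branch, Ivd oxidizes isovaleryl-CoA (ENSMUSG00000027332, chromosome 2, 118692435 to 118713390, plus strand, mm39). Ivd had 6276, 6444 and 7267 normalized counts in KC-Tie2 and 8752, 8521 and 9440 in Control libraries. The highest KC-Tie2 library was below the lowest Control library, and Ivd fell by 0.42 ± 0.08, to a level 25.3% lower (limma adjusted p = 0.0258). The carboxylase that follows is built from Mccc1, its biotin-bearing subunit, and Mccc2. Mccc1 had 2768, 2853 and 3018 in KC-Tie2 and 3560, 3047 and 3688 in Control libraries, separated by a narrow gap at Control replicate 2 (-0.25 ± 0.08, limma adjusted p = 0.161). Mccc2 was at 1348 ± 74.1 and 1367 ± 84.6 in KC-Tie2 and Control kidneys (95% confidence interval of the fold change -0.18 to 0.14), and Auh, the methylglutaconyl-CoA hydratase, at 1167 ± 82.7 and 1216 ± 55.5 (-0.23 to 0.10).

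None of the 5 genes of the valine and isoleucine branches was called, though 4 had KC-Tie2 libraries entirely below the Control libraries. Aldh6a1, the methylmalonate semialdehyde dehydrogenase at the end of valine breakdown, had 12509, 13782 and 16016 in KC-Tie2 and 20111, 17102 and 18847 in Control libraries (-0.41 ± 0.10, limma adjusted p = 0.0677). Hibadh, the hydroxyisobutyrate dehydrogenase before it, averaged 5388 ± 489 and 6722 ± 398 (-0.32 ± 0.08, limma adjusted p = 0.0798), in KC-Tie2 and Control kidneys. Hibch, the hydrolase that releases hydroxyisobutyrate from CoA, had 733, 766 and 984 in KC-Tie2 and 1057, 1016 and 1040 in Control libraries. Its first 2 KC-Tie2 libraries were well below Control and the third close to it (-0.34 ± 0.10, limma adjusted p = 0.136). Acad8, the isobutyryl-CoA dehydrogenase, averaged 1165 ± 22.3 in KC-Tie2 and 1368 ± 90.8 in Control kidneys (limma adjusted p = 0.14). Acadsb, which oxidizes the isoleucine-derived acyl-CoA, was the exception, with overlapping groups at 2993 ± 189 in KC-Tie2 and 3138 ± 144 in Control kidneys (95% confidence interval of the fold change -0.23 to 0.09).

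Propionyl-CoA from isoleucine and valine is carboxylated by Pcca and Pccb, epimerized by Mcee and rearranged to succinyl-CoA by Mmut, the cobalamin-dependent mutase. Pcca (ENSMUSG00000041650, chromosome 14, 122771736 to 123128512, plus strand, mm39) had 1732, 1812 and 1914 normalized counts in KC-Tie2 and 2275, 2187 and 2287 in Control libraries. The groups did not overlap, and Pcca fell by 0.31 ± 0.07, to a level 19.2% lower (limma adjusted p = 0.0431). The gene Ggact overlaps Pcca on the other strand, with means of 1316 in KC-Tie2 and 1460 in Control kidneys, and since no source used here says whether counting used strand, the share of reads counted for Pcca is uncertain. Mmut had 3933, 4295 and 4516 in KC-Tie2 and 5434, 4644 and 4926 in Control libraries, with no overlap (-0.23 ± 0.08, limma adjusted p = 0.183). Pccb averaged 3761 ± 221 and 4178 ± 149 (limma adjusted p = 0.325), and Mcee 548 ± 37.8 and 538 ± 19.7 (limma adjusted p = 0.93), in KC-Tie2 and Control kidneys.

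Ratios between partner subunits are given as a description of 3 pairs, picked after the single genes had been seen. The log2 ratio of Bckdha to Bckdhb, set relative to the Control mean, was -0.29, -0.38 and -0.28 in KC-Tie2 replicates 1 to 3 and 0.09, -0.03 and -0.06 in Control replicates 1 to 3. For Mccc1 over Mccc2 it was -0.20, -0.32 and -0.16 in KC-Tie2 and -0.0015, -0.06 and 0.06 in Control libraries, and for Pcca over Pccb -0.17, -0.26 and -0.04 in KC-Tie2 and 0.00015, 0.02 and -0.02 in Control libraries. In each pair the first gene had separated groups and its partner had not, which the ratios restate. No test of the difference between partners was made, and the confidence intervals of the fold changes overlapped in each pair. They were -0.41 to -0.13 for Bckdha and -0.15 to 0.24 for Bckdhb, and -0.43 to -0.07 for Mccc1 and -0.18 to 0.14 for Mccc2. For Pcca the interval was -0.45 to -0.16 and for Pccb -0.31 to -9.49e-05.

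**Figure D3:**
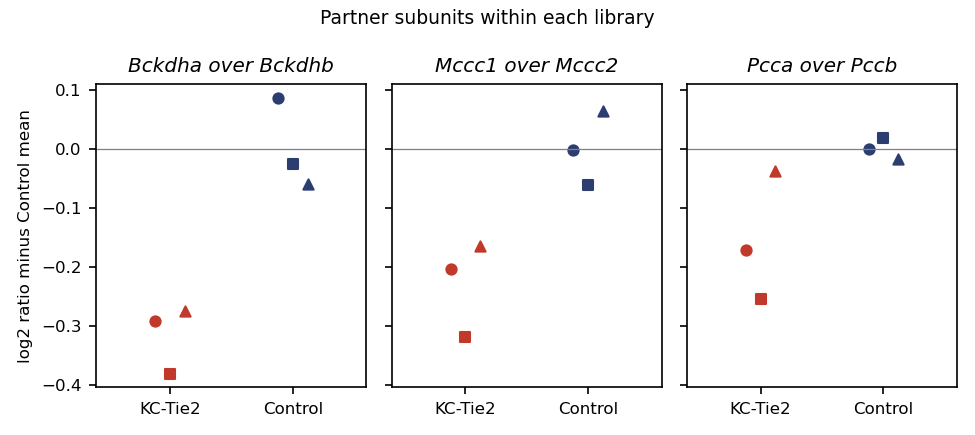
Points give the log2 ratio of the normalized counts of 2 subunits of the same enzyme in each library, minus the mean of the Control libraries, with KC-Tie2 left of Control and circle, square and triangle for replicates 1 to 3. KC-Tie2 points lie between -0.38 and -0.04 and Control points between -0.06 and 0.09; the pairs were picked after the single genes had been seen.

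Tyrosine is broken down by Hpd, Hgd and Fah in turn, the last of which splits fumarylacetoacetate. None was called. Fah had 4527, 4686 and 5181 in KC-Tie2 and 5807, 5410 and 6267 in Control libraries, with no overlap (-0.28 ± 0.08, limma adjusted p = 0.112). Hgd, homogentisate dioxygenase, averaged 4518 ± 488 and 5158 ± 288 (-0.20 ± 0.09, limma adjusted p = 0.306), in KC-Tie2 and Control kidneys. Hpd, the dioxygenase that makes homogentisate, had 471, 561 and 654 in KC-Tie2 and 892, 607 and 686 in Control libraries. Hpd had the widest spread of the 38 among Control libraries, a coefficient of variation of 20.2%, and its groups overlapped (-0.37 ± 0.16, limma adjusted p = 0.334).

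Proline breakdown showed no called gene and no common direction. Prodh, proline dehydrogenase, had 4000, 3749 and 4262 in KC-Tie2 and 4781, 4296 and 4653 in Control libraries, separated by a narrow gap (-0.19 ± 0.07, limma adjusted p = 0.233). Prodh2, the hydroxyproline dehydrogenase, averaged 1078 ± 106 in KC-Tie2 and 1168 ± 161 in Control kidneys (limma adjusted p = 0.694). Aldh4a1, the dehydrogenase that follows in both routes, averaged 12611 ± 553 in KC-Tie2 and 12004 ± 1527 in Control kidneys (0.08 ± 0.10, limma adjusted p = 0.77). Dgcr6 overlaps Prodh on the other strand, with means of 877 in KC-Tie2 and 777 in Control kidneys.

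The glutamate and aspartate enzymes were the pathway with the highest median fold change, 0.05 over 4 genes. Got1, the cytosolic aspartate aminotransferase, had 2231, 2617 and 2299 in KC-Tie2 and 2072, 1965 and 1904 in Control libraries. It was the one gene of the 38 whose KC-Tie2 libraries all lay above Control, but it was not called (0.26 ± 0.08, limma adjusted p = 0.114). Its mitochondrial counterpart Got2 averaged 4994 ± 402 and 4686 ± 258 (95% confidence interval of the fold change -0.08 to 0.26), in KC-Tie2 and Control kidneys. Glud1, glutamate dehydrogenase, averaged 6814 ± 451 and 7575 ± 499 (-0.32 to 0.02), and Glul, glutamine synthetase, 13200 ± 1322 and 13221 ± 1832 (-0.23 to 0.24), in KC-Tie2 and Control kidneys.

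Of the 6 enzymes of glycine, sarcosine and dimethylglycine, none was called. Sardh and Dmgdh, mitochondrial flavoenzymes that demethylate sarcosine and dimethylglycine, were both separated. Sardh had 6823, 6900 and 8291 in KC-Tie2 and 10108, 8688 and 10315 in Control libraries (-0.40 ± 0.10, limma adjusted p = 0.0605). Dmgdh had 1599, 1656 and 1956 in KC-Tie2 and 2236, 2045 and 2194 in Control libraries (-0.32 ± 0.08, limma adjusted p = 0.084). The glycine cleavage system showed no such separation. Gldc, its decarboxylase, had 1547, 2031 and 2426 in KC-Tie2 and 2525, 2412 and 1882 in Control libraries, the widest spread of the 38 among KC-Tie2 libraries (coefficient of variation 22.01%). Its aminomethyltransferase Amt averaged 1326 ± 132 and 1444 ± 68.7 (limma adjusted p = 0.513), and its lipoyl carrier Gcsh 1508 ± 133 and 1378 ± 144 (limma adjusted p = 0.551), in KC-Tie2 and Control kidneys. Shmt1, the cytosolic serine hydroxymethyltransferase, averaged 1185 ± 103 in KC-Tie2 and 1081 ± 67.3 in Control kidneys (limma adjusted p = 0.5). Smcr8 overlaps Shmt1 on the other strand at higher means, 2192 in KC-Tie2 and 2195 in Control kidneys, so the Shmt1 value is uncertain. Psmd9 overlaps Hpd on the other strand at lower means than Hpd, 449 in KC-Tie2 and 493 in Control kidneys. Among the further genes described below, Zfp740 overlaps Csad, with means of 1594 in KC-Tie2 and 1502 in Control kidneys, and Pomt2 overlaps Gstz1, with 658 in KC-Tie2 and 652 in Control kidneys. Fgfr2 overlaps Acadsb, with means of 640 in KC-Tie2 and 664 in Control kidneys, and B3gnt8 overlaps Bckdha, with 375 in KC-Tie2 and 385 in Control kidneys; the remaining overlapping genes had lower means than these.

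The 4 genes that fell are shown with the 250 bases before their RefSeq start (build GRCm38.p6, whose positions differ from mm39). Capitals mark each CCAAT box, read as CCAAT or, on the other strand, ATTGG. Pcca has 2 RefSeq windows, of which the one at the GENCODE protein-coding start is given. The windows are chr6:23132987-23133236 on the minus strand for Aass, chr17:31637206-31637455 on the minus strand for Cbs, chr2:118861744-118861993 on the plus strand for Ivd and chr14:122534078-122534327 on the plus strand for Pcca.
Aass: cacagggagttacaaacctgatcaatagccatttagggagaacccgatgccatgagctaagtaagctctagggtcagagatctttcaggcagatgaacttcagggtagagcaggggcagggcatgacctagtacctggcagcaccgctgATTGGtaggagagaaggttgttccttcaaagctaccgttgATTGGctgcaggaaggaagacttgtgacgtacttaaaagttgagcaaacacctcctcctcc
Cbs: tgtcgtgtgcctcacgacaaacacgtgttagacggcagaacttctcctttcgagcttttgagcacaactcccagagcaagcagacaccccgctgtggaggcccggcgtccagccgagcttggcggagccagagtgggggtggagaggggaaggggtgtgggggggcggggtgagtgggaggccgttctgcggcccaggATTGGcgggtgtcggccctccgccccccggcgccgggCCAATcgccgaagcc
Ivd: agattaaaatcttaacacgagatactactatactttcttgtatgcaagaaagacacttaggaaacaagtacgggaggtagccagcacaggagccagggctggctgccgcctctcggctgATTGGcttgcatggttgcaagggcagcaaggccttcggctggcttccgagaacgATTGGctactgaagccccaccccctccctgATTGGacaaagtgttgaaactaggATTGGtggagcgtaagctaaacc
Pcca: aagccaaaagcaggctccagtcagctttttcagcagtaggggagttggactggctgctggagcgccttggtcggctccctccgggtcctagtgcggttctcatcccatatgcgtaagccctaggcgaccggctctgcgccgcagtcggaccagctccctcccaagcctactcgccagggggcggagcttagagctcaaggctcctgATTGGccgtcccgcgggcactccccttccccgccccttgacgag
Aass held 2 CCAAT boxes, Cbs 2, Ivd 4 and Pcca 1. RefSeq windows were matched for 35 of the 38 enzymes, and 22 of these 35 had a CCAAT box in at least 1 window. By window, 24 of 39 enzyme windows (61.5%) held one, against 33.8% of all 32851 windows of the same length. A GC box (GGGCGG, either strand) was in 51.3% of the enzyme windows and 32.7% of all windows, and a TATA box (TATAAA, either strand) in 5.13% and 12.4%. An E-box (CACGTG) was in 5.13% of the enzyme windows and 6.02% of all windows. These are matches of letters, with no test of binding or use. The windows of all genes were not matched to those of the enzymes for expression in kidney or base content, so the shares are a description only.

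Of the 14 proximal tubule markers 1 was called, the urate transporter Slc22a12, which fell by 0.57 (limma adjusted p = 0.0228). The summed normalized count of the 14 proximal tubule markers was 425774, 471349 and 494269 in KC-Tie2 replicates 1 to 3 and 538622, 511839 and 551492 in Control replicates 1 to 3. That of the 38 enzymes was 132462, 144145 and 154618 in KC-Tie2 and 174798, 154668 and 170291 in Control libraries. Each sum was lower in every KC-Tie2 library than in any Control library, for the enzymes by a narrow gap between KC-Tie2 replicate 3 and Control replicate 2. Per 100 counts of the marker sum, the enzyme sum was 31.1, 30.6 and 31.3 in KC-Tie2 and 32.5, 30.2 and 30.9 in Control libraries, and these overlapped. Lrp2, Slc34a1 and Slc27a2 were the most abundant of the markers and weigh most in their sum. In the enzyme sum Aldh6a1, Glul and Aldh4a1 weigh most, with fold changes of -0.41, 0.0018 and 0.08, and none of them was called. Of the 14 markers, 10 had a fold change below 0 and 4 above. KC-Tie2 libraries lay entirely below Control at 8, against 10% of all genes tested, and entirely above at 2, Slc5a12 (0.28) and Slc7a7 (0.27), against 9.96%. The fold changes of Cubn, Slc5a2, Aqp1 and Slc4a4 lay between -0.06 and 0.06. The median over the 14 was -0.20, beside -0.19 for the enzymes.

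Of the 7 markers of the straight segment of the proximal tubule, 5 were below 0, 2 were above and none was called. Their fold changes ran from -1.83 for Acsm3 to 2.44 for Slc7a12. KC-Tie2 libraries lay entirely below Control at 3 of the 7 and entirely above at 1, against 10% and 9.96% of all genes tested. The 7 summed to 20432, 22204 and 32669 in KC-Tie2 and 38762, 34722 and 50650 in Control libraries. All 7 collecting duct markers were above 0 and none was called. KC-Tie2 libraries lay entirely above Control at 6 of the 7, against 9.96% of all genes tested. The collecting duct sum was 15918, 14082 and 12422 in KC-Tie2 and 9569, 11200 and 8531 in Control libraries. The 7 tubule injury markers in the table summed to 61602, 83564 and 38218 in KC-Tie2 and 14773, 16053 and 12095 in Control libraries, mostly from Spp1, and none was called. Loop and distal markers had 1 of 6 called, Calb1, which rose by 0.86 (limma adjusted p = 0.0106). Podocyte and endothelial, leukocyte and liver markers had no call, with sums of 12219 to 14753, 2003 to 2435 and 1887 to 2142 in KC-Tie2 and 11404 to 12392, 1734 to 2164 and 1976 to 3122 in Control libraries. In bulk RNA, fewer cells of a type and less RNA per cell cannot be told apart, and the part of cell makeup in the enzyme values was not tested.

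**Figure D4:**
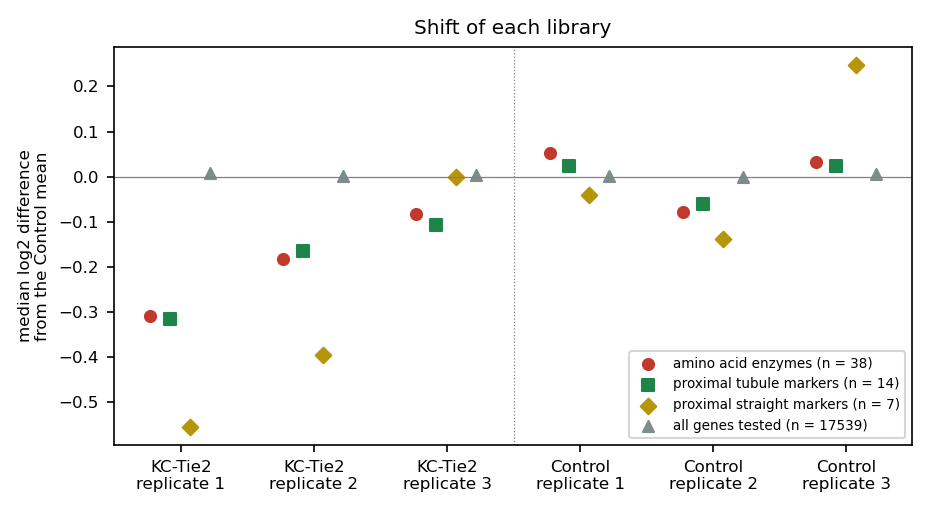
For each library, symbols give the median log2 difference from the mean of the Control libraries over the 38 enzymes, 14 proximal tubule markers, 7 markers of the straight segment and all 17539 genes tested, with KC-Tie2 libraries on the left. The enzymes lie at -0.31, -0.18 and -0.08 and the proximal tubule markers at -0.32, -0.16 and -0.11 in KC-Tie2 replicates 1 to 3, while all genes lie within 0.01 of 0.

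The fit was repeated with each library centred on the mean log2 value of the 14 proximal tubule markers, a setting added after the data had been seen. It shifts the median of all genes to 0.15, so fold changes here are relative to the markers and not to the other genes. Of the 38 enzymes 3 were then called lower and 1 higher, against 0.604% and 3.59% of all genes tested, 4.19% in either direction. Aass stood at -0.43 (limma adjusted p = 0.0178), Cbs at -0.33 (limma adjusted p = 0.0492) and Ivd at -0.28 (limma adjusted p = 0.0441). Pcca lost its call at -0.16 (limma adjusted p = 0.165). Got1 was called higher at 0.41 (limma adjusted p = 0.01495). The median over the 38 was -0.05, with 24 below and 14 above 0.

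**Figure D5:**
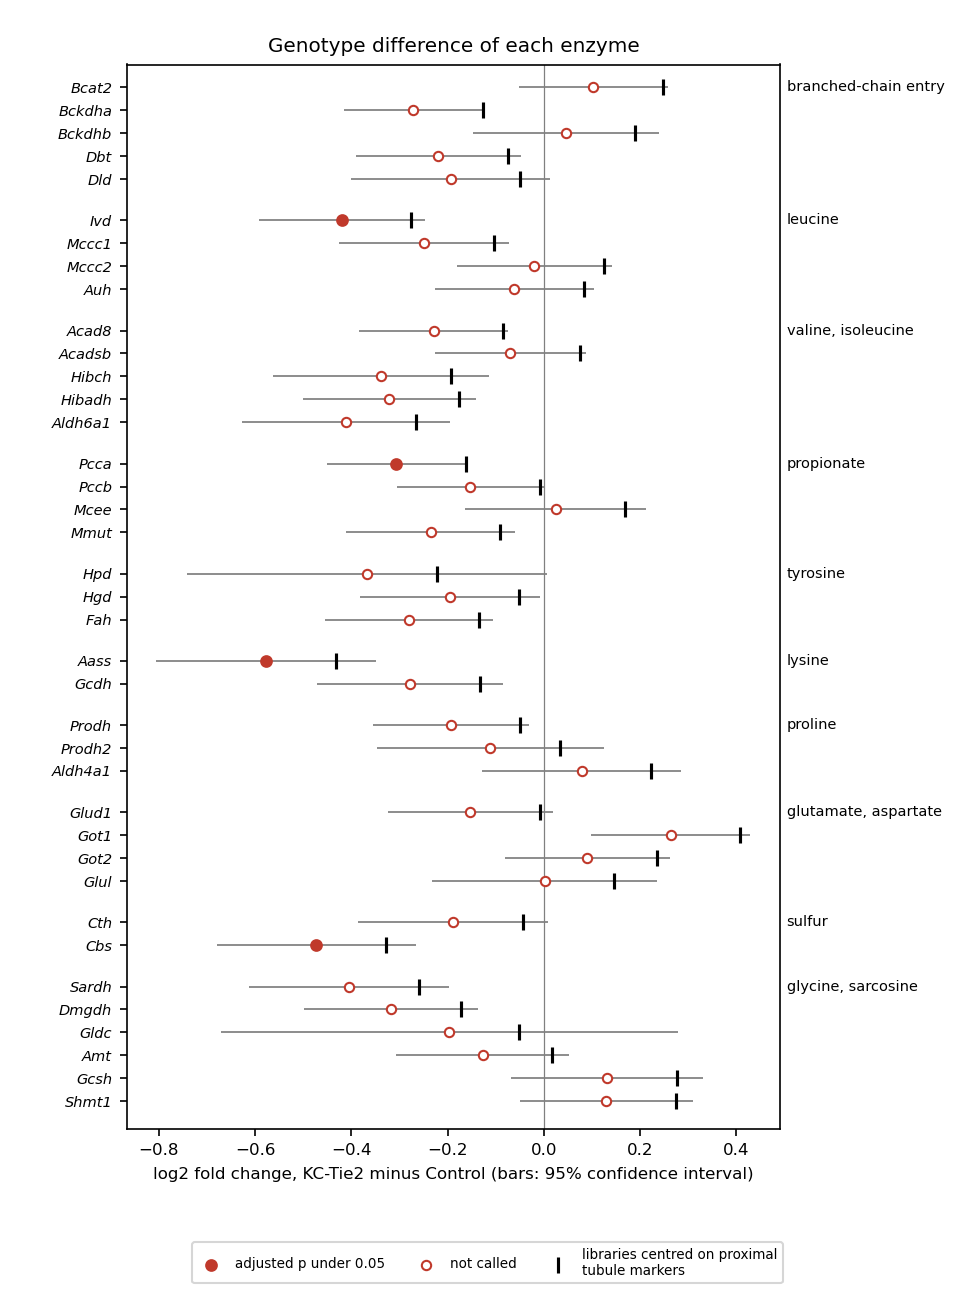
Circles give the log2 fold change of each enzyme, KC-Tie2 minus Control, with 95% confidence intervals, filled where adjusted p was under 0.05, and black ticks give the value with libraries centred on the 14 proximal tubule markers. Aass, Cbs, Ivd and Pcca are filled, and the ticks have a median of -0.05 against -0.19 for the circles.

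The enzymes also varied together among replicates of 1 genotype. KC-Tie2 replicate 1 had the lowest KC-Tie2 value at 35 of the 38 and Control replicate 2 the lowest Control value at 30 of the 38. Over all genes tested these libraries were lowest of their genotype at 36.3% and 36.1%. KC-Tie2 replicate 3 was the highest KC-Tie2 library at 24 of the 38, against 34.4% of all genes. The coefficient of variation of the 38 had a median of 8.69% in KC-Tie2 and 6.06% in Control kidneys.

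Among 84 further genes of amino acid breakdown and its neighbours, 76 were in the table and tested, of which 5 fell (6.58%) and 1 rose (1.32%), against 0.838% and 0.855% of all genes tested. Between 1 and 15 were called with single libraries left out: 2, 1 and 15 without KC-Tie2 replicates 1, 2 and 3, and 1, 11 and 1 without Control replicates 1, 2 and 3. Calls over all genes in the same fits were 69, 48 and 682, and 51, 530 and 54. Dhtkd1, a subunit of the oxoadipate dehydrogenase between Aass and Gcdh in lysine breakdown, had 944, 917 and 1058 in KC-Tie2 and 1707, 1462 and 1674 in Control libraries. It fell by 0.73 ± 0.08, a level 39.7% lower (limma adjusted p = 0.00242). Pipox, an oxidase of pipecolate and sarcosine, averaged 3693 ± 399 in KC-Tie2 and 4841 ± 294 in Control kidneys and fell by 0.39 ± 0.09 (limma adjusted p = 0.0449). Gstz1, the maleylacetoacetate isomerase between Hgd and Fah, averaged 3580 ± 294 and 4793 ± 348 and fell by 0.42 ± 0.08 (limma adjusted p = 0.0284), in KC-Tie2 against Control kidneys.

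Csad, which decarboxylates cysteine sulfinate on the way to taurine, averaged 3064 ± 270 in KC-Tie2 and 4255 ± 418 in Control kidneys and fell by 0.47 ± 0.09 (limma adjusted p = 0.0239). Gnmt, which methylates glycine to sarcosine, averaged 252 ± 23.5 in KC-Tie2 and 355 ± 16.2 in Control kidneys and fell by 0.50 ± 0.11 (limma adjusted p = 0.0454). Uroc1, the urocanase of histidine breakdown, had 1842, 2067 and 1746 in KC-Tie2 and 1366, 1525 and 1141 in Control libraries. It rose by 0.49 ± 0.11, to a level 40.9% higher (limma adjusted p = 0.0473). The 76 genes had a median fold change of -0.11, and 52 were below 0. Libraries of KC-Tie2 kidneys lay entirely below Control at 22 of them (28.9%, against 10% of all genes tested) and entirely above at 8 (10.5%, against 9.96%). With libraries centred on the proximal tubule markers, 2 of the 76 were called lower, Dhtkd1 (-0.58) and Csad (-0.33). In that fit 5 were called higher: Gatm, Oat, Cdo1, Uroc1 and Suclg2. Of all genes tested, 0.604% were then called lower and 3.59% higher. Gstz1, Pipox and Gnmt lost their call.

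In the authors' deposited table, 10 of the 38 enzymes had a step-up FDR under 0.05 and a ratio of KC-Tie2 to WT below 1, and none with a ratio above 1. By comparison, 2.08% of all its genes were lower and 1.83% higher by the same rule. The 10 were Aass, Aldh6a1, Bckdha, Cbs, Dmgdh, Fah, Hibadh, Ivd, Pcca and Sardh, which include the 4 genes called here. The authors' deposited table gives Aass a ratio of 0.674 (FDR 1.72e-05), Ivd 0.748 (FDR 0.000101), Cbs 0.72 (FDR 0.000537) and Pcca 0.809 (FDR 0.0115). Got1 has a ratio of 1.2 in the authors' deposited table, with an FDR of 0.0789.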

How the data were processed

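Poly(A)-selected RNA of 6 kidneys, 3 labelled KC-Tie2 and 3 labelled Control, was analysed from 2 deposited tables. The normalized counts are a signal made by the authors. Partek 12.5.0, STAR, DESeq2 and mm39 are named in the submitters' processing notes, without their roles, and neither annotation nor strand setting is stated. In the deposited signal table, between 68.3% and 71.1% of the values below 60 matched whole steps (tolerance 0.01), so whole reads were not recovered. Of the other deposited table, the authors' p-value, FDR and ratio were used. The score values, a signed fold change of KC-Tie2 against WT per the file headers, were computed by the authors and left as deposited. They were not used, and their relation to the ratio was not tested.

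Columns were matched to samples by library name. Values were analysed as log2(value + 1) in limma 3.58.1 (R 4.3.3; lmFit, eBayes with trend and robust, 4 residual and a median of 7.79 prior degrees of freedom), two-sided, for 17539 genes (mean 10 or more). Counts and medians of lists are descriptions, without a test of the list. All 38 enzymes are named; of the 84 further genes, those called are named. The enzymes, lists and tests were chosen with earlier results of these data known, and single markers were named after their values were seen. Promoter windows came from RefSeq on GRCm38.p6. Gene ends are 1 base before the listed stop. Alternatives were other pseudocounts, filters, scalings, variance models and library weights, the replicate number as a block, and each library left out. Python 3.11.15, pandas 2.3.3, numpy 2.4.6 and matplotlib 3.10.9 were used for summaries and figures.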

Additional observations from a re-analysis of the deposited data

How the results depend on the processing

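Over 17 alternatives set with the main test, 33 of the 38 enzymes kept the sign of their fold change. The other 5 lay near 0 and changed sign. Leaving out 1 library moved Bckdhb between -0.0033 and 0.108, Mccc2 between -0.0722 and 0.0208, Mcee between -0.0063 and 0.0831, Aldh4a1 between -0.0316 and 0.1402 and Glul between -0.0759 and 0.1111. Mccc2 was also at 0.0143 with libraries scaled to the same sum, and Glul at -0.0366 with library weights. With libraries centred on the proximal tubule markers, a setting added after seeing the data, 5 changed sign: Mccc2 (0.125), Auh (0.0841), Acadsb (0.0758), Prodh2 (0.0339) and Amt (0.0178).

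The number of enzymes that fell was not stable when 1 library was left out. It was 0 without KC-Tie2 replicate 1, 0 without KC-Tie2 replicate 2 and 10 without KC-Tie2 replicate 3, and 0, 8 and 0 without Control replicates 1, 2 and 3. Genes called in all ranged from 48 to 682 and further amino acid genes from 1 to 15 over these fits. Library weights gave 9 enzymes, 11 further genes and 549 genes in all. Without the trend in eBayes there were 0 enzymes, 0 further genes and 7 genes in all, and without robust 3 further genes. Centring on the proximal tubule markers gave 735 genes in all, 106 lower and 629 higher. Aass, Cbs and Ivd kept their call in 12 of the 17 alternatives and Pcca in 11. The limma adjusted p ranged from 0.0025 to 0.221 for Aass, from 0.00377 to 0.235 for Cbs, from 0.00857 to 0.215 for Ivd and from 0.0228 to 0.226 for Pcca. Under at least 1 alternative, 8 more enzymes were called, all of them lower. The cause of these changes was not tested.

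The labels used here do not say whether the replicate numbers pair the samples. Deviations of same-numbered libraries correlated at 0.18, -0.10 and 0.01. With 3 libraries per genotype, and no other pairs compared, these values cannot settle it. With the replicate block, 6 enzymes, 13 further genes and 581 genes in all were called, against 4, 6 and 297 in the main fit. Depth is known only through the step between low values, which puts every enzyme at 382 or more estimated counts in every library.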
